A study of Mus musculus with 3 samples.

Results

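Sense-intronic transcripts are long non-coding RNAs whose annotated exons lie inside an intron of another gene and run on the same strand as that gene. They were chosen here by annotation alone, as the genes all of whose transcripts carry the sense-intronic type, and 327 of the 55536 gene rows met the rule. The gene type in GENCODE M21 gave the same 327. All 3 libraries came from 1 group: bone-marrow-derived macrophages of C57BL/6J mice, given Lipid A (100 ng/ml) over 12 h, kept without it for a further 12 h, and collected at 0 min of restimulation with the same agent and dose. RNA of the chromatin fraction was depleted of ribosomal RNA and sequenced as total RNA. The labels call the libraries biological replicates 1 to 3 and give them starting amounts of 1 µg, 250 ng and 500 ng of RNA and 1 donor identifier, so the spread between them may be partly technical. There is no untreated group, and every level below is a description of this one state.

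Chromatin-bound RNA holds transcripts still attached to RNA polymerase, so introns of the gene being read are present beside finished exons. A read from an intron on the gene's own strand can therefore come from the precursor RNA of that gene or from a separate transcript within the intron, and both have the same letters. The gene around a member is called its host here. Macrophages derive from marrow precursors, take up particles and dead cells, and answer Lipid A, the membrane anchor of bacterial lipopolysaccharide, through Toll-like receptor 4. In these libraries all 12 macrophage markers examined, Csf1r and Adgre1 among them, reached 1 TPM (transcript counts scaled for length and depth) in each library, and their summed level was 905, 1163 and 1071 TPM in replicates 1 to 3. The 11 fibroblast and stromal markers summed to 1.36 and 2.93 TPM in replicates 1 and 2 and to 673 TPM in replicate 3, with Col1a1 at 149 TPM there; in bulk RNA, fewer cells of a type and less RNA per cell cannot be told apart. Depth was 11958978, 17283529 and 19475027 expected counts, of which the members held 22535, 26056 and 30293. Where a gene had no count, counting error allows up to 3, or 0.254, 0.174 and 0.154 CPM (counts scaled to the library total).

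As annotated, 148 members had a single exon and 179 were spliced, and 309 had 1 transcript. The longest transcript of a member was 979 bases at the median, from 124 to 6071. They lay 44.0 kb into the host at the median, or 40.3% along its span, and the median host span was 116 kb. The hosts numbered 270, were protein-coding for 315 members, and 31 of them held 86 members between them. Chromosome 3 held 66 members, chromosome 5 held 39 and chromosome 1 held 31. The share of all genes on each chromosome was not set beside these counts, and members of 1 host are counted separately. Gm14222 and Gm48617 had no host on their strand. For 4 members an annotated exon overlapped a host exon, 33 overlapped a gene on the other strand, and 5 shared bases with a small RNA gene on the same strand.

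The annotated transcript ends were read from the GENCODE M21 transcripts on mm10, because a finished RNA normally carries a polyadenylation signal just before its end and a stretch of intron need not. Of the 12 highest members by mean TPM, Gm12238 and Gm42658 were left out by name. The ends of the other 10 were read, of which 2 held a hexamer. The last 60 bases of 5 of them, chosen after all 10 had been read so as to show both hits, follow 5′ to 3′, with AATAAA or ATTAAA in capitals where either stood in the last 50 bases of the transcript's own strand.
Gm29488, in Srgap2, chr1:131406812-131406871, minus strand: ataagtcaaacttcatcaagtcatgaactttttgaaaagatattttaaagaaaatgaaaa
Gm47920, in Zmiz1, chr14:25462328-25462387, plus strand: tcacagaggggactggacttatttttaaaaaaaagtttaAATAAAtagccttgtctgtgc
Gm3513, in Fnip2, chr3:79551314-79551373, minus strand: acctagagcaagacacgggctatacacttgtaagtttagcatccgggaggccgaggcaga
Gm48194, in Tut7, chr13:59781062-59781121, minus strand: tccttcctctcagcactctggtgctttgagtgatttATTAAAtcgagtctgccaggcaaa
Gm43328, in Rap1a, chr3:105732444-105732503, minus strand: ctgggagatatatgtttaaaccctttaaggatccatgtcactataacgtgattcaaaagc
Gm47920 held AATAAA and Gm48194 ATTAAA, and the other 3 held neither hexamer in this window. Over all members, 92 of 327 (28.1%) held 1 or both hexamers in the last 50 bases of the longest transcript, against 4.31% in the middle 50 bases of the same transcripts. The share at the end was 38.4% over all genes, 68.8% in protein-coding genes, 41.0% in lincRNA genes and 28.9% in TEC genes, an annotation class that awaits experimental support. It was 26.2% in the members at or above 1 TPM in every library and 29.8% in the others. A hexamer is a match of letters, not a mapped cleavage site.

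A large part of the annotated members gave signal on chromatin. Of the 327, 149 (45.6%) were at or above 1 TPM in every library, where the same held for 24.8% of all gene rows. The share was 46.1% for protein-coding genes, 31.8% for TEC genes, 22.5% for antisense genes and 6.44% for lincRNA genes. A further 22 members passed 1 TPM in some libraries and 156 in none. No count at all was found for 97 members (29.7%), against 53.9% of all gene rows and 27.0% of protein-coding genes. Only 33 reached a mean of 10 TPM, and the 10 highest held 30.7% of the members' summed TPM. Nearest to 1 TPM by mean level, just inside, Gm16014 in Cd38, an enzyme that cleaves NAD, had 1.01, 2.05 and 0.00 TPM, and just outside, Gm44366 in Gpr19 had 1.10, 1.23 and 0.55 TPM.

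By alignment-based level, which is meant wherever no table is named, the highest was Gm29488, a single-exon transcript of 2402 bases about midway along Srgap2. It had 89.0, 83.4 and 70.0 TPM (mean 80.8 ± 9.77 SD, n = 3) from 2295, 2505 and 2597 counts. Srgap2 itself had 400, 428 and 341 TPM, above the member in each library. In the read-based table, described further below, Gm16155, Gm47031, Gm3513 and Gm47921 had higher means than Gm29488, at 145, 134, 126 and 120 TPM against 65.6 TPM. Gm47920, a spliced transcript that begins 0.795 kb into Zmiz1, a transcriptional coactivator gene, had 59.5, 68.2 and 61.1 TPM (62.9 ± 4.60), with Zmiz1 at 96.6, 127 and 102 TPM. The stretch is also covered on the other strand by Zmiz1os1, at 23.9, 32.3 and 24.9 TPM, and reads of the pair may not be told apart, since no source used here states how strand was handled. Gm3513 in Fnip2, a folliculin-interacting protein gene, had 75.5, 50.3 and 51.4 TPM (59.1 ± 14.2), so replicate 1 stood above the others; Fnip2 was at 321, 295 and 280 TPM.

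Gm12238 in G3bp1, a gene for a stress-granule protein, ranked among the highest by mean TPM but rests on few reads. It had 175, 0 and 0 TPM, from 2.46, 0 and 4 counts over effective lengths of 1.2, 0 and 0 bases. The deposited interval for replicate 1 ran from 0.251 to 456 TPM, and the read-based table listed it at 0 in all 3 libraries. All 124 of its bases lie within the 140-base small nucleolar RNA gene Gm22884, so its whole sequence is shown: 
Gm12238, chr11:55482706-55482829, plus strand: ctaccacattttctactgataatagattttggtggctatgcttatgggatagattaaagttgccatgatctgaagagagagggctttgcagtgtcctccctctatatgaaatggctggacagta
Its TPM is not a level that can be compared with those of the other members.

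Among the next members, the libraries were close together. Gm47664 in Elmo1, which codes for a partner of DOCK proteins in engulfment, had 33.1, 24.0 and 32.9 TPM, against 96.5, 91.7 and 94.7 TPM for its host. Gm42659 and Gm42658, both in the actin-capping subunit gene Capza1, had 31.5, 27.6 and 28.8 TPM and 24.3, 23.1 and 23.4 TPM, with Capza1 at 38.8, 40.9 and 46.2 TPM. Gm48194 in Tut7, an enzyme gene for adding uridines to RNA ends, had 31.9, 30.04 and 24.4 TPM against 170, 168 and 143 TPM. Gm48302 in Ell2, an RNA polymerase II elongation factor gene, had 24.0, 23.4 and 26.9 TPM against 68.7, 53.3 and 65.6 TPM. In each of these 5 pairs all 3 host values, summed over all host transcripts, lay above all 3 member values. Against only the host transcripts whose span holds the member, Gm47664 and Gm42659 were higher in every library. Those transcripts had 18.25, 20.1 and 19.9 TPM for Gm47664 and 21.5, 26.3 and 26.5 TPM for Gm42659. Gm48194 and Gm48302 stayed below theirs, and Gm42658 was above in replicate 1 only. Over all host transcripts, Gm43328 in the small GTPase gene Rap1a was the exception among the 10 highest with more than a few reads. It had 28.3, 24.5 and 28.2 TPM and its host 16.7, 13.5 and 15.4 TPM. The direction turned in the read-based table, where the member had 31.2, 21.2 and 28.2 TPM and Rap1a 75.3, 53.5 and 61.5 TPM.

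**Figure D1:**
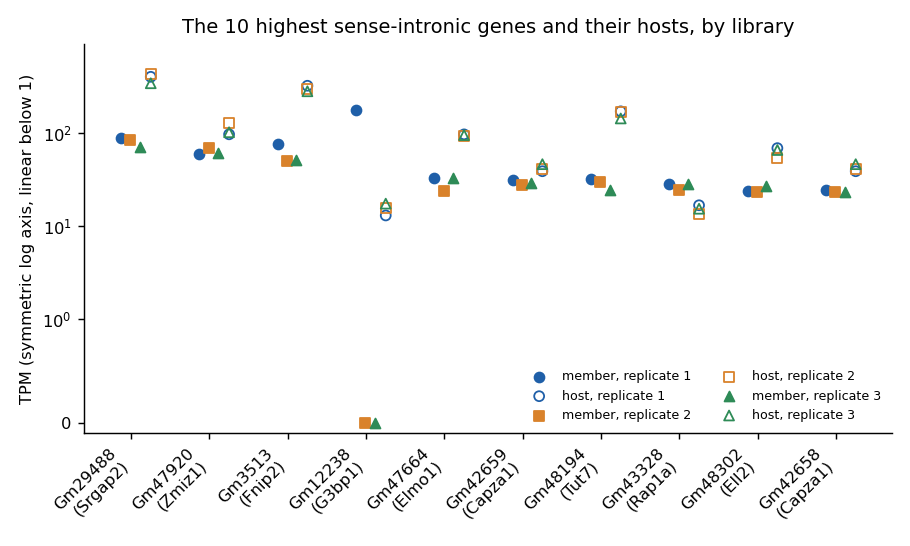
Levels in TPM (symmetric log axis) of the 10 members with the highest mean TPM (filled) and of their hosts (open), 1 point per library. Gm12238 is at 175, 0 and 0 TPM, Gm3513 stands higher in replicate 1 than in the others, and Gm43328 is above Rap1a in all 3 libraries of this alignment-based table.

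Of 23 members that carry names of their own, or clone names, 10 had a mean of 1 TPM or more and 13 did not. Ppnr in Tcf7l2, a gene for a transcription factor of Wnt signalling, had 18.1, 15.9 and 12.7 TPM against 37.5, 31.1 and 24.2 TPM. AC132460.2 in Anks1 had 18.1, 26.5 and 15.2 TPM and its host 59.8, 80.9 and 51.2 TPM, both highest in replicate 2. AC154492.2 in Rhoq, a small GTPase gene, had 14.7, 15.1 and 17.1 TPM, above its host at 11.7, 10.2 and 12.1 TPM. With read-based levels it was below, at 15.5, 11.0 and 14.6 TPM against 23.2, 16.6 and 23.4 TPM. CT010502.2 had 15.6, 12.1 and 13.5 TPM in Pdpk1, the gene of a kinase that acts on AKT, at 35.0, 31.6 and 32.8 TPM. The Pdpk1 transcripts whose span holds it had only 1.40, 0.30 and 0.38 TPM. Its read-based mean was 26.1 TPM, with Pdpk1 at 79.7, 67.8 and 70.7 TPM there. Peg13, a non-coding RNA known to be imprinted and expressed from the paternal copy, had 4.18, 5.05 and 5.89 TPM inside Trappc9 at 18.1, 27.2 and 23.9 TPM. The remaining 5 of the 10, AC166575.1 in Pknox1, Hm629797 in Phkb, AC154232.1 in Iqcb1, AC113485.1 in Sgms1 and AC157784.1 in Ccbe1, had means from 1.22 to 5.27 TPM. Of the 327 members, 1 lay in an immune or macrophage gene listed as a host of interest. That list held 190 of the 55536 gene rows, and neither scarcity nor excess is read from the count. The member was AC122252.1, in the MAP kinase phosphatase gene Dusp1. It had no count in any library, while Dusp1 had 8.93, 9.99 and 11.2 TPM.

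Whether a member was detected went with the level of its host. Of 85 members whose host had a mean under 0.5 TPM, 1 was at or above 1 TPM in every library, and of 48 with a host from 0.5 to 3 TPM, 3 were. The count was 19 of 34 for hosts of 3 to 10 TPM, 58 of 70 for 10 to 30 TPM, 58 of 77 for 30 to 100 TPM and 10 of 11 above that. Across the 325 members with a host, log2(TPM + 0.1) of member and host had a Pearson r of 0.73 and a Spearman rho of 0.68; members of 1 host are not independent and all share the same libraries. Among the 157 pairs with both at a mean of 1 TPM or more, in 131 hosts, r was 0.38 and rho 0.33.

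**Figure D2:**
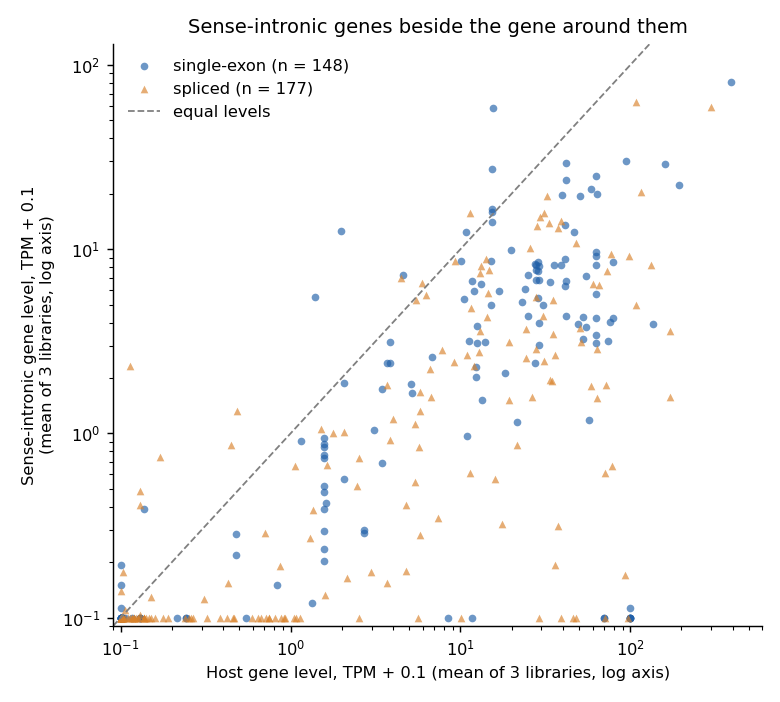
Mean level of each of 325 members against that of its host, TPM + 0.1 on log axes, split by exon number; the dashed line marks equal levels. Members lie mostly below the line, and those at the left edge, in silent hosts, are nearly all at the floor.

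In those 157 pairs the member stood at a median of 23.3% of its host's TPM, with quartiles of 10.4% and 41.4%. The median log2 ratio was -2.09, -2.03 and -2.21 in replicates 1 to 3, and -2.10 over the means (SD of the library medians 0.090). In 90 single-exon pairs the median log2 ratio was -1.88, -1.92 and -2.10 by library, and in 67 spliced pairs -2.18, -2.09 and -2.29; by the mean over libraries they were -1.97 and -2.36, a wider gap than in any 1 library. All annotated host transcripts ran across the member in only 12 of the 157 pairs. Against only those host transcripts whose span holds the member, the median was 48.8%, with quartiles of 21.9% and 82.6%. That sum leaves host transcripts out, so a ratio to it cannot fall, rounding aside. Spearman's rho over all 325 rose from 0.68 to 0.78. Within the 157 pairs rho went from 0.33 to 0.41 and r only from 0.38 to 0.39. The comparison with spanning transcripts was added after the transcript tables had been seen.

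By alignment, detection rose with the level of the spanning transcripts. Above 30 TPM of spanning transcripts all 24 members up to 100 TPM and all 3 beyond were at or above 1 TPM in every library, and from 10 to 30 TPM 64 of 76 were. Below 0.5 TPM it was 5 of 111, and 33 of 111 in the read-based table. Under 1 TPM in every library despite a host mean of 10 TPM or more were 25 members. Of these, 12 had a read-based mean of 1 TPM or more. Most of the 25 had 3 TPM or more of spanning transcripts, and 10 had less. Chosen after their values were seen, examples are Gm10115 and Gm10855 in the RNA-binding protein gene Celf2, whose host had 74.0, 77.1 and 59.5 TPM but 0.057 TPM of spanning transcripts, and Gm11364 in Cdkal1, with 0 TPM of spanning transcripts under a host of 42.5, 51.3 and 44.8 TPM. All 3 members had no count.

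**Figure D3:**
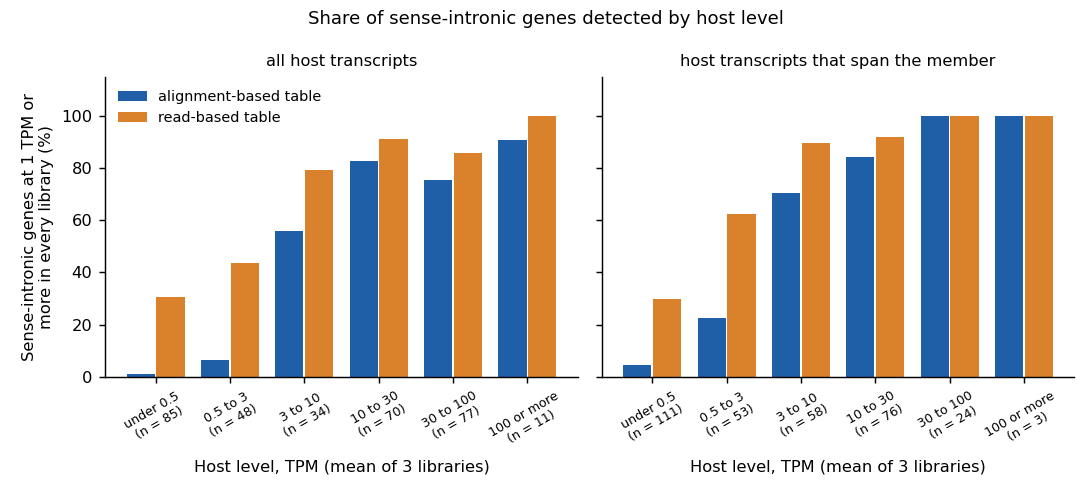
Share of members at or above 1 TPM in every library by the mean level of the host, over all host transcripts (left) and over those that span the member (right), in both deposited quantifications. The alignment-based share was 1.18% under 0.5 TPM of host and 90.9% at 100 TPM or more; the read-based share was 30.6% in the lowest class.

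A run of 6 single-exon members in Frmd4a, a gene for a FERM-domain scaffold protein, departed from this order. They lie from 73.4 to 299 kb into the host, which had 116, 106 and 76.6 TPM in all and from 6.69 to 22.1 TPM in spanning transcripts. Together the 6 members held 1 count over all 3 libraries, although 2 of them had a read-based mean above 1 TPM. In contrast, each of 7 single-exon members in Cdk14, a cyclin-dependent kinase gene at 65.9, 57.7 and 64.7 TPM, was detected in every library. These multi-member hosts were chosen after their values were seen.

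Within Cdk14 the members had different levels. Gm43728, 109 kb from the host's start, had 11.0, 8.45 and 9.17 TPM, while Gm43577, 262 kb in, had 3.66, 3.05 and 3.28 TPM. Levels were not ordered by position alone, because Gm43111, 550 kb in, had 9.50, 8.65 and 9.21 TPM and Gm43112, 598 kb in, had 3.09, 2.84 and 3.07 TPM. In each library the highest of the 7 was between 3.00 and 3.56 times the lowest. The order differed in the read-based table, where Gm43577 had 10.4, 8.72 and 9.69 TPM and Gm43111 9.50, 7.22 and 9.01 TPM. In Man1a2, a gene for a mannosidase that trims N-glycans, 4 members ran from a mean of 2.94 to 8.01 TPM. In Lrig2, 3 members ran from 5.33 to 8.39 TPM, and in Snx27, a sorting nexin gene for endosomal recycling, 3 ran from 6.24 to 13.5 TPM.

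The 4 members of Rap1a stood near or above their host by alignment, and all below it in the read-based table, where they lay between 12.1 and 31.2 TPM. Gm43331 had 15.3, 17.3 and 14.8 TPM, Gm43330 14.6, 17.6 and 17.3 TPM and Gm43329 14.1, 14.3 and 13.5 TPM, all overlapping the range of Rap1a. Gm43328, at the far end of the host, was at 26.99 ± 2.15 TPM and lay above all 3 others in every library by alignment, but not in the read-based table, where Gm43331 had 28.8, 28.9 and 30.6 TPM. The 2 members of Zmiz1 were farther apart: Gm47921, 20.9 kb into the host, had 6.64, 5.0 and 2.99 TPM, from 10, 6 and 5 counts, so that Gm47920 was from 8.97 to 20.4 times as high. The read-based table gave the opposite order, with Gm47921 at 122, 129 and 108 TPM and Gm47920 at 64.7, 47.2 and 51.4 TPM. Magi3, a membrane scaffold gene at 1.38, 1.41 and 1.66 TPM, held 11 members, and none reached 1 TPM in every library.

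**Figure D4:**
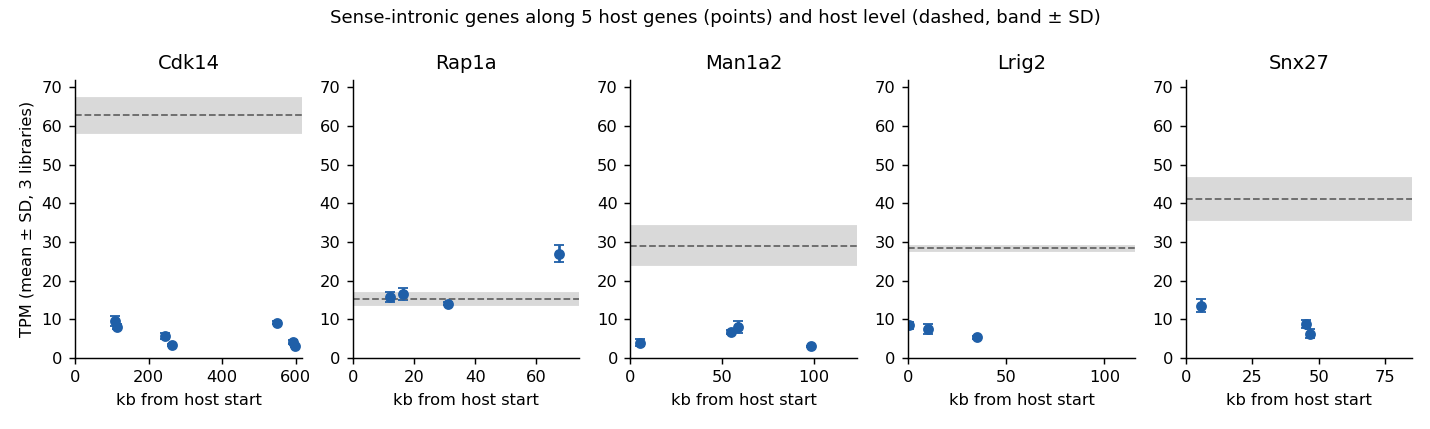
Mean TPM ± SD over 3 libraries of the members in 5 hosts, by distance from the host's annotated start in kb; the dashed line and band give the host's mean ± SD. In this alignment-based table the Rap1a members lie at or above the band, and in the other 4 hosts all of them lie below it.

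Among the 157 pairs with both at a mean of 1 TPM or more, 5 members were above their host in every library. Besides Gm43328 and AC154492.2 these were Gm28229, with 12.0, 11.7 and 13.6 TPM inside Gm20537 at 2.33, 2.54 and 0.81 TPM, Gm42868, with 7.01, 5.06 and 4.22 TPM inside Gm12474 at 1.35, 1.68 and 0.85 TPM, and Gm17491 in the phosphate transporter gene Slc20a2, with 5.74, 8.1 and 6.72 TPM against 3.2, 5.19 and 4.78 TPM, named because the count is small. With read-based levels 2 of these 5, Gm28229 and Gm42868, stayed above their host in every library. The other 3 lay below their host in every library. The hosts of those 2 had low levels, and Gm20537 had 17.5, 19.1 and 4.23 expected counts in replicates 1 to 3. Against the spanning transcripts, where it cannot fall because host transcripts are left out, the count was 21. Over all read-based pairs it was 30, so the number depends on which host transcripts and which quantification are used. At the other end, Gm30409 and Gm47587, both in 2010111I01Rik at 151, 184 and 179 TPM, had 1.78, 2.65 and 0.00 TPM and 4.45, 3.57 and 2.41 TPM. Gm43566 in the splicing kinase gene Srpk2 had 0.28, 2.37 and 0.62 TPM against 50.9, 61.6 and 57.6 TPM.

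The read-based table, made from the reads and an index rather than from alignments, put more members above the threshold. There 216 members (66.1%) were at or above 1 TPM in every library, against 38.7% of all gene rows, and they included all 149 found above. The gain differed by structure. Single-exon members went from 86 of 148 to 110, with a median log2 difference of 0.49 between read-based and alignment-based TPM (118 members). Spliced members went from 63 of 179 to 106, with a median log2 difference of 1.91 (109 members), and the difference was 2.02, 1.77 and 2.03 in replicates 1 to 3. Spliced members are also shorter, at a median of 666 bases against 1767. Their hosts are lower as well, at a median of 3.90 TPM against 14.4 TPM. Members of like length or host level were not compared, so the parts of length, host level and splicing were not tested.

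Some members were high in the read-based table alone. Gm47031, a single-exon member in Mgat4c, a gene listed at 0.00, 0.00 and 0.11 TPM, had 0.25, 0.39 and 0.23 TPM in the alignment-based table and 134 ± 9.27 TPM (SD, n = 3) in the read-based one. CT571247.2 in Dennd1c, a host at 91.1, 103 and 98.5 TPM, went from 0 in every library to 47.0 ± 7.57 TPM. Gm38163 in P4htm, a host at 0.08, 0.24 and 0.54 TPM, went from 0 to 33.7 ± 3.995 TPM. In all, 25 members with no alignment-based count had a read-based mean of 1 TPM or more, and 26 of the 85 members in hosts under 0.5 TPM passed the threshold in the read-based table against 1 in the other. Apart from Gm12238, the members named for a difference the other way moved little: A530041M06Rik in Lrig2 had 6.13, 8.65 and 7.65 TPM and a read-based mean of 5.17 TPM, and Gm26968 in Ccdc171 had 0.62, 1.64 and 1.99 TPM and 0.99 TPM. Over the whole set, 10 members had a read-based mean over 50 TPM, and 7 of these had an alignment-based mean under 10 TPM, 3 of them in hosts under 0.5 TPM. Chosen after their values were seen, Gm16155 in Tmcc3 had 9.31, 10.7 and 7.18 TPM by alignment and 145 ± 38.8 TPM in the other table, and Gm48161 in the angiotensin receptor gene Agtr1a had 0.42, 0.66 and 0.85 TPM and 82.4 ± 20.7 TPM. What the extra reads match was not tested.

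**Figure D5:**
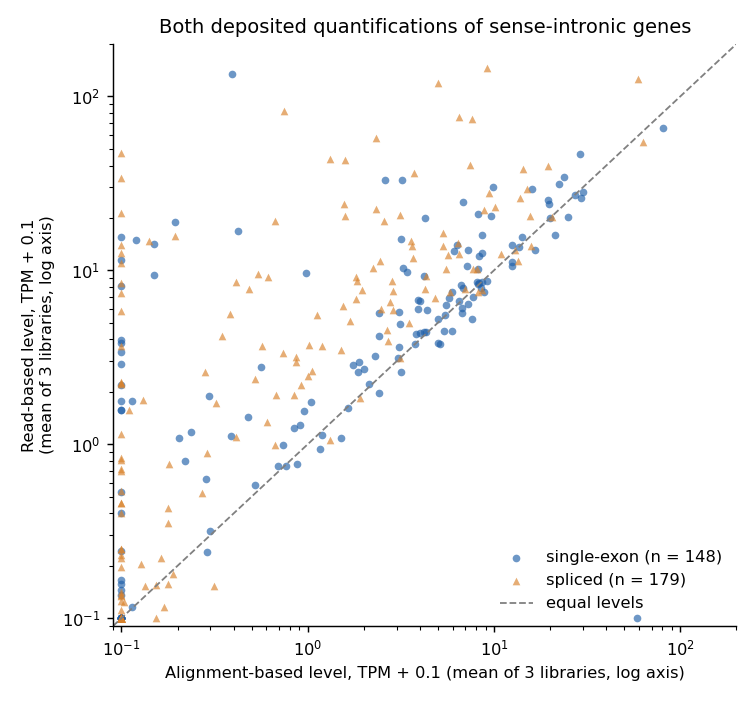
Mean TPM + 0.1 of all 327 members in the alignment-based and the read-based tables, on log axes, by exon number; the dashed line marks equal levels. Single-exon members above 1 TPM mostly lie near the line, spliced members mostly above it, and a column at the left edge holds members with no alignment-based count.

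Most of the members kept for passing 1 TPM in every library varied by less than 2 times. Keeping them so leaves out any that fell under 1 TPM in a library, and the same spread over all genes was not computed. Among the 129 that also averaged 10 counts or more, the median coefficient of variation of TPM was 15.7%. In 117 of these the highest library was under 2 times the lowest. The widest range, 4.13 times, was that of Gm44867 in Plekha7, at 6.08, 7.73 and 1.87 TPM from 23, 9 and 1 counts, and its host was also lowest in replicate 3, at 8.94, 4.94 and 2.35 TPM. Gm45738 and Gm13840 also had large spreads, on counts of 0 to 4. In edgeR's quasi-likelihood test of each gene's dispersion against the trend, with Benjamini-Hochberg adjustment over 14839 genes, 0.0% of genes and none of the 139 members tested passed an adjusted p of 0.05. Without adjustment 5.07% of genes and 1 member, Gm3513, had a p under 0.05 in that edgeR fit across all genes. Its adjusted p in the same edgeR test was 0.896. With no filter on low counts 0 of 25532 genes passed either, although Col1a1 had 0.01, 0.43 and 149 TPM in replicates 1 to 3. The test can thus miss a large difference, and passing none does not show that members were stable.

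Whether the members as a group were higher in replicate 1 depended on the scaling. Over the 144 members that averaged 10 counts or more, the median log2 ratio of scaled CPM was 0.16 for replicate 1 over 2, with 94 members higher where 48.1% of all genes were. It was 0.29 for replicate 1 over 3, with 111 higher against 48.1% of all genes, and 0.096 for replicate 2 over 3, with 89 higher against 48.7%. The medians of their 116 hosts were 0.092, 0.11 and 0.005. These comparisons share libraries, and the starting amount of RNA, highest in replicate 1, and the stromal markers, high in replicate 3, move with them; their part was not tested. The ratio of replicate 1 over 2 was above 0 by CPM and below 0, at -0.13, by deposited TPM. That of replicate 1 over 3 fell to 0.061 by deposited TPM. The median member TPM was 0.88, 0.96 and 0.75. Leaving out rows without a gene name, members took 0.191%, 0.151% and 0.156% of the expected counts.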

How the data were processed

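Chromatin-fraction total RNA was measured in 3 libraries of 1 group. The README files deposited with the libraries describe alignment to the mm10 transcriptome (GENCODE M21) for the gene and isoform tables, and index-based quantification of reads for the other table, called read-based. No source used here names the programs, their versions or the strand handling. Expected counts, which are estimates and not always whole, were deposited by the authors and are unscaled. The TPM column, as deposited by the authors, is scaled over all rows of a table, so small RNAs take much of the sum. Interval bounds on the TPM scale and effective lengths were treated as signal values, as deposited by the authors. Estimated counts of the read-based tables were likewise deposited by the authors. Rows without a gene name (1.31%, 0.476% and 0.240% of the expected counts) were left out.

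Members were genes of the sense-intronic type throughout. A host is a gene on the same strand whose span holds the member, small RNA genes aside. For the 8 members with several, a protein-coding host came first, then one with a gene name rather than a clone or Gm number, then the shortest; the middle step was set after values were seen and changed the host of 3 members. Ratios add 0.1 TPM to both sides. Counts rounded to whole numbers were fitted with edgeR 4.0.16 under R 4.3.3 (intercept only, TMM scaling), tested on simulated data. Python 3.11.15 with pandas 2.3.3, numpy 2.4.6 and scipy 1.17.1 served for the rest, and matplotlib 3.10.9 for plots. No library duplicates another: chi-square over degrees of freedom was 39.1 to 72.0 between pairs. Counting limits cover counting error only.

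Named are the 10 highest members, those of largest spread, highest and lowest ratio to the host, largest difference between both tables, a symbol of their own or an immune host, and the nearest to 1 TPM on each side; others are said to be chosen later. The members, lists and rules were chosen with earlier results of these data known.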

Additional observations from a re-analysis of the deposited data

How the results depend on the processing

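The number of members at or above 1 TPM in every library, 149, ranged from 118 to 216 over thresholds of 0.5 and 2 TPM, a minimum of 10 counts, the read-based table, TPM renormalized over protein-coding and long non-coding genes (2.03 to 2.54 times the deposited values), members without overlap of a host exon or small RNA, and each replicate left out. The median log2 ratio to the host, -2.10, was -2.35 by counts per kilobase of annotated length, -1.83 with 1 TPM added, -1.82 in the read-based table, -1.04 against spanning host transcripts, -2.07 with the shortest host, and from -2.10 to -2.00 with a replicate left out. The number of members above their host in every library, 5, was 12 without a filter on low values, 30 in the read-based table, 21 against spanning transcripts, and from 5 to 7 with a replicate left out. By deposited TPM the median log2 ratio of replicate 1 over 2 was -0.13 instead of 0.16, and that of replicate 1 over 3 was 0.061 instead of 0.29. No member passed the dispersion test of edgeR under any alternative, including a fit with unadjusted deviances added after the main one was seen; the smallest adjusted p of a member ranged from 0.288 to 0.994. Genes passing numbered 10 in the read-based table, 8 without replicate 1 and 74 without replicate 3, where 9 members had an unadjusted p under 0.05. The read-based level of 26 of 35 named members lay outside 1 SD of their mean, and 18 of the 35 had a read-based mean above the alignment-based one. The cause was not tested. No paired analysis was possible because there is 1 group. Depth limits members with few counts and effective lengths near 0, Gm12238 above all.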
